A study of Mus musculus with 6 samples.

Results

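The 10 genes described here, Elavl2, Elavl3, Elavl4, Rbfox3, Map2, Tubb3, Dcx, Stmn2, Gap43 and Cd24a, encode RNA-binding, cytoskeletal and membrane proteins of young neurons. They were taken from the array table as the probe sets whose platform annotation names only that gene. Each of the 10 had exactly 1 such probe set, among 19938 genes with a probe set of their own and 35557 probe sets in all. The comparison asked whether their transcripts differed between neurosphere cells overexpressing Bmi1 and empty vector control cells.

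When a neural progenitor in the ventricle wall becomes a neuroblast, it switches on RNA-binding proteins that stabilise and splice neuronal transcripts and it rebuilds its microtubules for migration and outgrowth. The neuronal ELAV proteins (HuB, HuC and HuD, from Elavl2, Elavl3 and Elavl4) bind AU-rich elements, and their ubiquitous relative HuR comes from Elavl1. Rbfox3 encodes the nuclear antigen NeuN, Tubb3 a beta-tubulin isotype of neurons, Dcx the microtubule-binding protein doublecortin of migrating neuroblasts, Stmn2 a tubulin-binding stathmin, Gap43 a growth cone phosphoprotein and Cd24a a membrane-anchored glycoprotein of neuroblasts that other cells also carry. BMI-1 belongs to the Polycomb repressive complex PRC1, a silencer of transcription that can be recruited to unmethylated CpG-rich DNA.

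Both groups were grown from tissue of the lateral ventricle wall, taken from CD1 mice (an outbred strain) of 4 to 6 weeks and expanded as neurospheres, free-floating spheres of neural stem/progenitor cells, in medium with EGF and FGF. The controls carried the empty pCMMP vector with eGFP, and the test cells the same retroviral vector with Bmi1. Both were sorted on eGFP and kept at clonal density, 2000 cells per well, with 3 cultures per group. The submitters call the cultures of a group independent but name no separate mice, so the p-values measure the spread between these cultures only. For all 6 arrays the source entry gives the other group, whereas titles, transduction and genotype fields name the same group for each and were followed. The labels name the unflagged construct and the text of the study a FLAG-tagged one. No promoter specific to a cell type is named for the vector.

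The shift of a gene, below, is its mean log2 value with Bmi1 minus that with the empty vector. The array values are log2 expression per probe set from 1 Affymetrix Mouse Gene ST 1.0 array per culture, with 300 ng of RNA each. Array medians lay between 4.37 and 4.45. The probe set of the transduced gene, Bmi1, read 7.70, 8.40 and 8.31 in control cells and 9.18, 8.36 and 8.42 in Bmi1 cells, so that the groups overlapped (limma, adjusted p = 0.38). This probe set did not pass the test, and every direction below is that of the titles. Progenitor transcripts were present in both groups, with group means of 9.69 and 9.64 for Nes and 10.20 and 10.42 for Sox2. In such bulk samples, fewer cells of a type and less RNA per cell cannot be told apart.

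The promoters of the 3 genes that passed the test in either direction are shown with their CpGs, since PRC1 is known to bind CpG-rich DNA. Binding was not measured on these arrays. Each is a window of 300 bases from RefSeq (GRCm38.p6), 250 before to 50 after a transcript start, printed 5′ to 3′ with every CpG in capitals. The array files give no coordinates, so these windows place the genes and not the probes. Elavl3 lies at chr9:22051974-22052273 (minus strand), Map2 at chr1:66175079-66175378 (plus strand) and Dcx at chrX:143933075-143933374 (minus strand, 1 of 2 overlapping windows).
Elavl3: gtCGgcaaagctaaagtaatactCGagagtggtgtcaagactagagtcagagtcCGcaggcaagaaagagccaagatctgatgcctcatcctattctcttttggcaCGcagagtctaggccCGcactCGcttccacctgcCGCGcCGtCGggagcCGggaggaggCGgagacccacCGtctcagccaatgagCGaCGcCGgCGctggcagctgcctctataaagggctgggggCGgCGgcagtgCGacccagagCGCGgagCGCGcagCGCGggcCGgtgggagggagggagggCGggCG
Map2: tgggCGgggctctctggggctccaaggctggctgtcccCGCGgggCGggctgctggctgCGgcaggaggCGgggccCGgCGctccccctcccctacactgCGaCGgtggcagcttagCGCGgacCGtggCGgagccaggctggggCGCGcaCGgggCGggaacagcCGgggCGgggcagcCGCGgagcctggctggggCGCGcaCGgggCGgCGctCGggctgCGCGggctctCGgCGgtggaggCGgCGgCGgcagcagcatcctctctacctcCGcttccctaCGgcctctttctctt
Dcx: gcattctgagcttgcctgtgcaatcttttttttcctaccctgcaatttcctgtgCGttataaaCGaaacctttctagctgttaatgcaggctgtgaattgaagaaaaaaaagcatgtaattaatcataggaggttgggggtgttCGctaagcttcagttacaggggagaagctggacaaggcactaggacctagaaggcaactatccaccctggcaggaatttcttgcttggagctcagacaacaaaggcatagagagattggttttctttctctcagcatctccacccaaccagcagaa

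The Elavl3 window held 29 CpGs and the Map2 window 37, against a median of 7 over 32851 windows, and 12.9% and 5.58% of all windows held at least as many. Each of the Dcx windows held 3, a number that 76.7% of windows reach. Of the others, Tubb3 had 26 CpGs in its window, Rbfox3 had 4, the 6 windows of Elavl2 had 10 to 27 and the 4 windows of Elavl4 had 4 to 23. No window was given for Stmn2, Gap43 and Cd24a.

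Of the 10 genes, Elavl3 and Dcx rose in Bmi1-overexpressing cells, Map2 fell, and 7 did not pass the test. Among all genes with a probe set of their own, 7.35% passed, 2.98% upward and 4.37% downward, and among all probe sets 5.70%, with 2.23% upward and 3.46% downward. Over all probe sets 794 rose and 1231 fell, or 593 and 1467 after median centring of the arrays. The median shift of the 10 genes was -0.03, against 0.01 for all genes. For 6 of the 10 the groups did not overlap, 4 with the Bmi1 arrays higher (Elavl3, Dcx, Tubb3 and Cd24a) and 2 with them lower (Map2 and Elavl2), beside 31.3% of all genes (15.3% with the Bmi1 arrays higher and 15.9% with them lower). The early-neuron genes that passed thus lay in both directions. The summed linear level of the 10 probe sets was 11.76 to 11.84 (as log2) in control arrays and 11.64 to 11.72 in Bmi1 arrays, where the brightest genes weigh most.

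**Figure D1:**
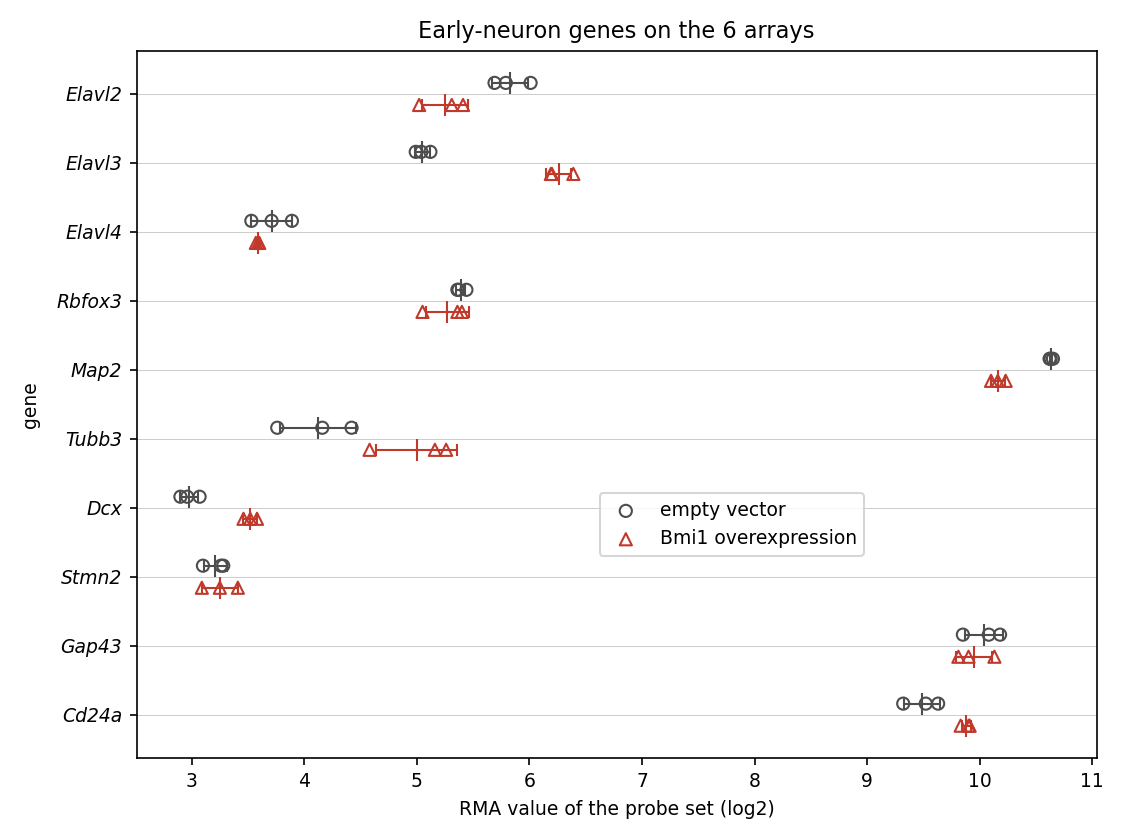
Log2 expression after RMA (x axis) for each of the 10 early-neuron genes (y axis), with each array as a point (empty vector as circles, Bmi1 overexpression as triangles) and the group mean and its SD (n = 3) as bars. The triangles of Elavl3 (6.19 to 6.39) lie apart from its circles (4.99 to 5.12), whereas those of Elavl4, Rbfox3, Stmn2 and Gap43 overlap with the circles.

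Elavl3, which encodes HuC, gave the clearest rise. Its probe set (10591706) read 5.04, 5.12 and 4.99 with the empty vector and 6.19, 6.39 and 6.20 with Bmi1. All 3 Bmi1 arrays lay more than 1 log2 unit above every control. The mean went from 5.05 ± 0.07 to 6.26 ± 0.11 (SD, n = 3 each), a shift of 1.22 (SE 0.08, 95% interval 1.01 to 1.42, limma adjusted p = 0.0012) or 2.32-fold. The rise passed in each of the 6 fits that left out 1 array, with shifts of 1.15 to 1.25. It is the only one of the 10 genes with a called shift of at least 1, which 1.43% of all genes had, and it was also called by the methods' t-test with its own threshold (p under 0.001 and a log2 difference of at least 1).

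Elavl2, encoding HuB, lay in the opposite direction. It read 6.01, 5.79 and 5.69 with the empty vector and 5.02, 5.41 and 5.31 with Bmi1. The Bmi1 arrays were all lower, and the shift of -0.58 (SE 0.13, 95% interval -0.90 to -0.26) missed the threshold (limma, adjusted p = 0.062). Adjusted over 1 probe set per gene in place of all probe sets, it passed (limma, adjusted p = 0.014), as it did after median centring (0.039). Elavl4, encoding HuD, read 3.71, 3.89 and 3.53 against 3.59, 3.60 and 3.57, with the Bmi1 values inside the range of the controls. Its shift was -0.13 (95% interval -0.37 to 0.12). Both group means of Elavl4 lie below the median of all probe sets, 4.41, and no detection call is given. Elavl1 was 9.95 ± 0.11 and 9.97 ± 0.10 (SD, n = 3 each), a shift of 0.02 with an interval of -0.20 to 0.24.

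Within an array, the log2 value of Elavl2 exceeded that of Elavl3 by 0.67 to 0.97 with the empty vector and lay 0.89 to 1.17 below it with Bmi1, a change of -1.80 that left no overlap between groups. Values of different probe sets cannot be ranked as transcript levels, but their difference can be followed from array to array. The difference of Elavl3 and Elavl4 grew by 1.34, that of Elavl1 and Elavl3 shrank by 1.20 (a change of -1.20), and that of Elavl1 and Elavl2 grew by 0.60, all 3 without overlap. The difference of Elavl2 and Elavl4 changed by -0.45, also without overlap, whereas for that of Elavl1 and Elavl4 the groups overlapped. The exact permutation test, two-sided, gave p = 0.1 for the pairs without overlap, the smallest that 3 arrays against 3 allow, and p = 0.15 after Benjamini-Hochberg adjustment over the 15 pairs of related genes compared.

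Rbfox3 (NeuN), a marker of postmitotic neurons, did not pass the test. It read 5.36, 5.37 and 5.44 with the empty vector and 5.40, 5.05 and 5.36 with Bmi1. The low value of Bmi1 replicate 2 set most of the shift of -0.12 (95% interval -0.38 to 0.14, limma adjusted p = 0.61), which was -0.01 without that array. Its relatives Rbfox1 and Rbfox2, splicing regulators as well, had shifts of -0.13 and -0.35 that did not pass (limma, adjusted p = 0.46 and 0.072). The within-array difference of Rbfox3 and Rbfox1 changed by 0.01 and that of Rbfox3 and Rbfox2 by 0.22, both with overlap between groups.

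Of 34 other genes of neuronal RNA-binding families with a probe set, 1 rose, 1 fell and 32 did not pass, with a median shift of -0.03. The poly(C)-binding protein gene Pcbp4 rose from 6.01 to 7.31, a shift of 1.30 (limma, adjusted p = 4.9e-04). Mbnl2, a muscleblind-like splicing factor, fell from 9.29 to 8.71, a shift of -0.58 (limma, adjusted p = 0.0071). Elavl3 and Pcbp4 were thus the only RNA-binding genes of these lists that rose. With adjustment over 1 probe set per gene, 2 of the 34 rose and 3 fell. Without Bmi1 replicate 2, 2 of them fell, and after median centring 3.

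Map2, the dendritic microtubule-associated protein of neurons, was the only one of the 10 that fell. Its mean lay at percentile 97.3 of all probe sets, whereas those of Dcx, Stmn2 and Elavl4 lay below their median. Which cells of the cultures carried Map2 transcripts was not tested. Its probe set (10347036) read 10.62, 10.63 and 10.65 with the empty vector and 10.16, 10.23 and 10.10 with Bmi1. The controls lay close together and all Bmi1 arrays below them. The mean went from 10.63 ± 0.01 to 10.16 ± 0.06 (SD, n = 3 each), a shift of -0.47 (SE 0.07, limma adjusted p = 0.012) or 1.38-fold. The call was lost without empty vector replicate 1, 2 or 3 (adjusted p = 0.0502, 0.057 and 0.057) or Bmi1 replicate 1 (0.053), while the shift stayed between -0.50 and -0.44.

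Some other microtubule-associated proteins rose. Map1b, an early axonal protein, rose from 5.65 ± 0.12 to 6.65 ± 0.21 (SD, n = 3 each), a shift of 1.00 (limma, adjusted p = 0.0078). Mapt, which encodes tau, rose by 0.85 (limma, adjusted p = 0.035) and Map6, a microtubule stabiliser, by 0.65 (limma, adjusted p = 0.0059). The within-array difference between Map1b and Map2 changed by 1.47, that between Mapt and Map2 by 1.32 and that between Map6 and Map2 by 1.12, pairs chosen after their values were seen and not tested. Map4, the form found in most tissues, had a shift of -0.29 (limma, adjusted p = 0.051). Its other, dimmer probe set had 0.03 (limma, adjusted p = 0.95). Mapre3, a protein of growing microtubule ends, fell by 0.54.

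Tubb3 varied most among cultures. It read 3.76, 4.16 and 4.42 with the empty vector and 4.58, 5.16 and 5.26 with Bmi1. The groups did not overlap, but the highest control came near the lowest Bmi1 array and both groups were spread. The means were 4.12 ± 0.34 and 5.00 ± 0.36 (SD, n = 3 each), a shift of 0.89 (SE 0.23, 95% interval 0.32 to 1.45) that did not pass (limma, adjusted p = 0.094). It passed when adjusted over 1 probe set per gene (limma, adjusted p = 0.023). The control mean of Tubb3 lies below the median of all probe sets, 4.41, and no detection call is given. Of 17 other tubulin genes and tubulin cofactors with a probe set, Tubb2b rose by 0.33 (limma, adjusted p = 0.049), Tubb4a fell by 0.85 (limma, adjusted p = 0.0042) and 15 did not pass, with a median shift of 0.09. Tubb2b passed in none of the 6 fits with 1 array left out and not after median centring. Tubb5, a beta-tubulin of dividing cells, had a shift of -0.01 with an interval of -0.19 to 0.16. Within an array, the log2 value of Tubb3 lay below those of Tubb5 and Tubb2b. The gap to Tubb5 narrowed by 0.90 without overlap between groups (exact permutation test, p = 0.1, adjusted over the pairs 0.15). That to Tubb2b narrowed by 0.56 with overlap (exact permutation test, p = 0.2, adjusted over the pairs 0.25).

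**Figure D2:**
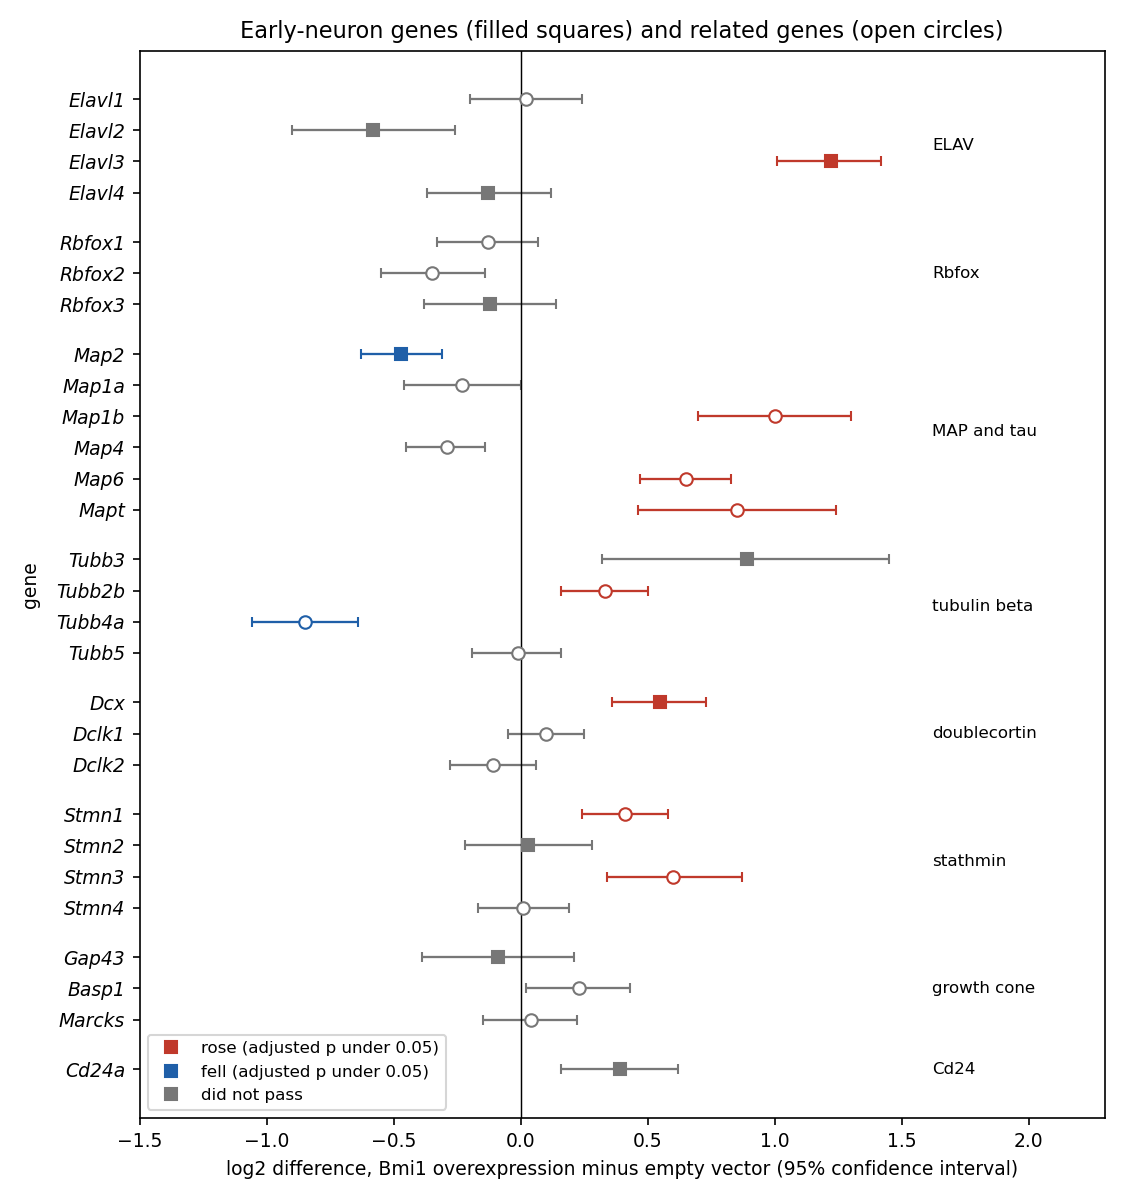
Log2 difference, Bmi1 overexpression minus empty vector, with its 95% interval (x axis) for the 10 early-neuron genes (filled squares) and related genes (open circles), grouped by family (y axis). Red marks genes that rose, blue those that fell and grey those that did not pass. Elavl3 stands at 1.22 beside Elavl2 at -0.58, and Map2 at -0.47 beside Map1b at 1.00.

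Dcx rose from a dim signal. The probe set (10607156) read 3.07, 2.90 and 2.96 with the empty vector and 3.58, 3.52 and 3.46 with Bmi1, with all Bmi1 arrays above all controls. The means were 2.98 ± 0.08 and 3.52 ± 0.06 (SD, n = 3 each), a shift of 0.55 (SE 0.08, 95% interval 0.36 to 0.73, limma adjusted p = 0.012). Both means lie below the median of all probe sets, 4.41, where RMA compresses differences and the table holds no detection call. Whether doublecortin transcripts were detected on either group of arrays is therefore not known from these values. The call was lost without empty vector replicate 2 or 3 (adjusted p = 0.054 and 0.055) or Bmi1 replicate 1 (0.051), and the shift was 0.51 to 0.59 over the 6 such fits. Dclk1 and Dclk2, the doublecortin-like kinases, had shifts of 0.10 and -0.11 (limma, adjusted p = 0.44 and 0.45). Within an array, the log2 value of Dcx lay below those of Dclk1 and Dclk2. The gap to Dclk1 narrowed by 0.45 and that to Dclk2 by 0.66, both without overlap between groups. Each pair had p = 0.1 (exact permutation test), or 0.15 when adjusted over the pairs.

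Stmn2 did not pass the test, whereas some of its relatives did. Stmn2 read 3.10, 3.28 and 3.26 with the empty vector and 3.41, 3.25 and 3.09 with Bmi1, with full overlap. Its shift was 0.03 (95% interval -0.22 to 0.28), also from a signal below the median of the probe sets. Stmn1, the stathmin of dividing and migrating cells, rose by 0.41 (limma, adjusted p = 0.026), and its other probe set by 0.42 (limma, adjusted p = 0.029). Stmn3, a neuronal stathmin, rose by 0.60 (limma, adjusted p = 0.029), while its other, dim probe set had 0.33 and did not pass (limma, adjusted p = 0.084). Stmn4 had a shift of 0.01. The within-array difference of Stmn2 and Stmn1 changed by -0.37 and that of Stmn2 and Stmn3 by -0.57, without overlap (exact permutation test, p = 0.1, adjusted over the pairs 0.15). That of Stmn2 and Stmn4 changed by 0.02 with overlap (exact permutation test, p = 0.8, adjusted over the pairs 0.86).

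Of 32 microtubule-associated proteins, doublecortin-like kinases, stathmins and related cytoskeletal genes outside the 10, 9 rose, 1 fell and 22 did not pass, with a median shift of 0.11. The rises were those of Map1b, Map6, Mapt, Stmn1 and Stmn3 and of 4 genes of the collapsin response mediator family, which couples guidance signals to microtubules in growing axons. Dpysl4 rose from 5.56 to 6.91, a shift of 1.35 (limma, adjusted p = 8.3e-04). Dpysl3 rose by 0.94 (limma, adjusted p = 0.0047) and Crmp1 by 0.83 (limma, adjusted p = 0.0027). Dpysl5, named after its values were seen, rose by 0.38 (limma, adjusted p = 0.023), and Dpysl2, the remaining member of the family, had a shift of 0.14 that did not pass. The count of rises in the list was 5 without any 1 of empty vector replicates 1, 2 and 3 and Bmi1 replicates 1 and 2, and 6 without Bmi1 replicate 3.

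Gap43 read 9.85, 10.18 and 10.08 with the empty vector and 10.13, 9.90 and 9.81 with Bmi1, and the groups overlapped. Its shift was -0.09 (95% interval -0.39 to 0.21, limma adjusted p = 0.75). The growth cone proteins Basp1 and Marcks, which share with GAP-43 an association with membrane phospholipids, had shifts of 0.23 and 0.04 that did not pass (limma, adjusted p = 0.21 and 0.85). Of 24 growth cone and neuronal membrane genes outside the 10, 2 rose, 4 fell and 18 did not pass, with a median of 0.10. Nrgn, encoding the calmodulin-binding protein neurogranin, fell by 1.05 (limma, adjusted p = 8.3e-04), the repellent Sema3a by 0.90 (0.0019), Cap2, an actin-binding protein, by 0.39 (0.025) and the endoplasmic reticulum protein gene Rtn1 by 0.38 (0.027). Thy1, a surface glycoprotein of neurons, rose by 0.96 (limma, adjusted p = 0.023). With 1 array left out the list had 1 rise without empty vector replicate 1 or 2 and 0 without any 1 of the others, and 3 falls without empty vector replicate 1 and 2 without any 1 of the others.

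Cd24a read 9.63, 9.52 and 9.32 with the empty vector and 9.83, 9.90 and 9.91 with Bmi1. All Bmi1 arrays were higher, and they lay closer together than the controls. The means were 9.49 ± 0.16 and 9.88 ± 0.04 (SD, n = 3 each), a shift of 0.39 (95% interval 0.16 to 0.62) that did not pass (limma, adjusted p = 0.074), and that passed when adjusted over 1 probe set per gene (limma, adjusted p = 0.024). Ependymal cells and B cells also carry this glycoprotein. None of 15 ependymal markers passed, and their summed level was 7.88 to 7.96 with the empty vector and 7.87 to 7.91 with Bmi1. The means of 11 of the 15 lay below the median of the probe sets. None of 7 B cell markers passed, with summed levels of 6.09 to 6.27 and 6.27 to 6.34 and all 7 means below that median. Dim markers such as these can hardly pass, and the part of these cells in the shift of Cd24a was not tested.

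Genes listed with neuronal intermediate filaments and synaptic proteins passed in both directions. Of these 32 genes, 3 rose, 4 fell and 25 did not pass, with a median shift of 0.05. The ubiquitin hydrolase gene Uchl1 rose by 1.06 (limma, adjusted p = 0.0023) and Ina, which encodes alpha-internexin, by 0.91 (0.0049). The synaptic vesicle gene Sv2a fell by 1.07 (limma, adjusted p = 0.010), the kinase subunit gene Camk2b by 0.63 (0.0062) and the vesicle GTPase gene Rab3a by 0.59 (0.0054). With 1 array left out, 2 to 3 genes of the list rose and 2 to 4 fell, with 2 rises without empty vector replicate 2 and 2 falls without empty vector replicate 3. With adjustment over 1 probe set per gene, 7 fell.

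**Figure D3:**
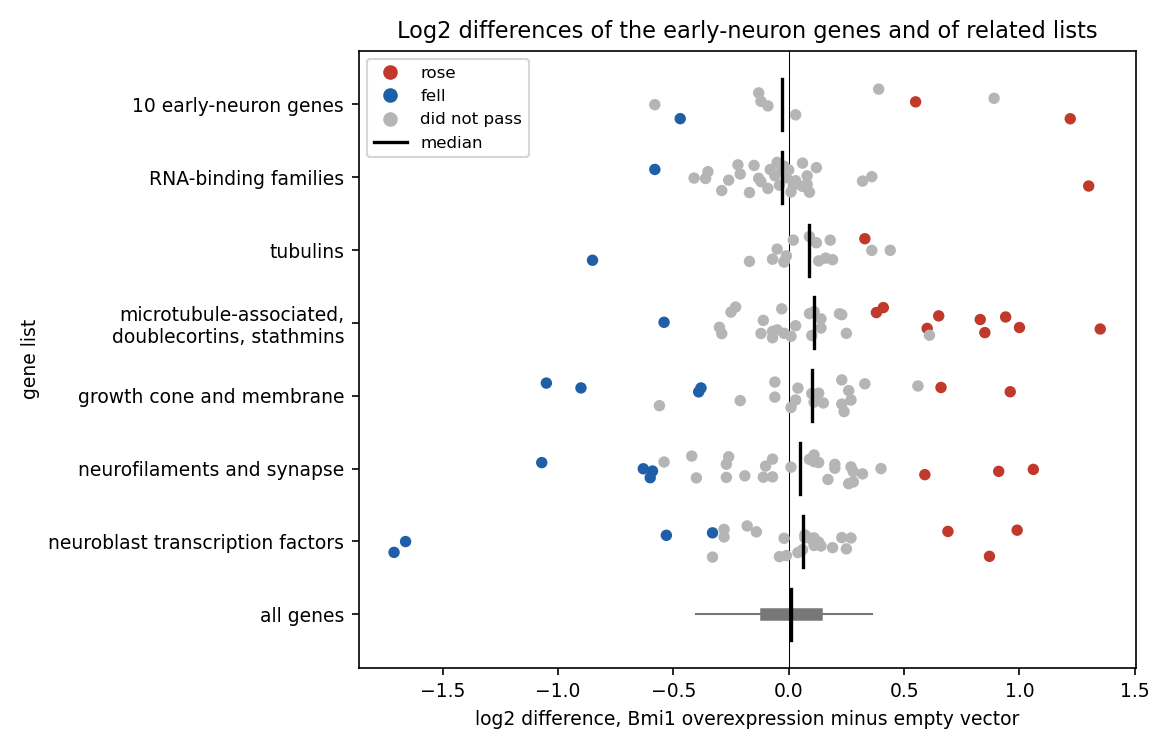
Log2 difference, Bmi1 overexpression minus empty vector (x axis), of each gene of the early-neuron set and of 6 related lists (y axis), with red for genes that rose, blue for those that fell, grey for those that did not pass and a black bar for the median. The bottom row gives all genes, with a thin line from the 5th to the 95th percentile (-0.40 to 0.36) and a thick one from the 25th to the 75th. The medians of the lists lie between -0.03 and 0.11, and Elavl3 is the rightmost point of the early-neuron set.

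Markers of glia moved beside these genes. Of 15 astrocyte markers, 5 rose and 1 fell, with Ndrg2, Kcnj10 and Gja1 up by 3.04, 1.78 and 0.76, and their summed level was 13.14 to 13.22 with the empty vector and 13.21 to 13.39 with Bmi1. Of the 15, 13 had a mean above the median of the probe sets, and Gfap and Gjb6 lay below it. Of 16 oligodendrocyte lineage markers, 3 rose and 2 fell, with Bcas1 and Ugt8a at -1.32 and -1.53 and Nkx2-2 at 1.82, and summed levels of 12.26 to 12.27 and 12.33 to 12.42. Of 16 stem and progenitor markers, Prom1 and Hes5 rose by 1.58 and 1.05 and 14 did not pass. Of 13 pericyte and fibroblast markers Acta2 fell by 1.34 and 12 did not pass, with 9 positive shifts and a median of 0.07. Their summed levels were 9.51 to 9.80 with the empty vector and 8.94 to 9.31 with Bmi1. Acta2, the brightest of the 13, weighs most in these sums. None of 13 microglial and 11 endothelial markers passed. The part of these cell types in the differences of the early-neuron genes was not tested.

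The share of genes that passed differed with brightness. Of genes with a mean below 5 on the log2 scale, 2.15% passed, against 12.3% between 5 and 7 and 13.3% at 9 or above. Elavl4, Tubb3, Dcx and Stmn2 lay below 5, and of these Dcx passed. Elavl2, Elavl3 and Rbfox3 lay between 5 and 7, and Elavl3 passed. Map2, Gap43 and Cd24a lay above 9, and Map2 passed.

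**Figure D4:**
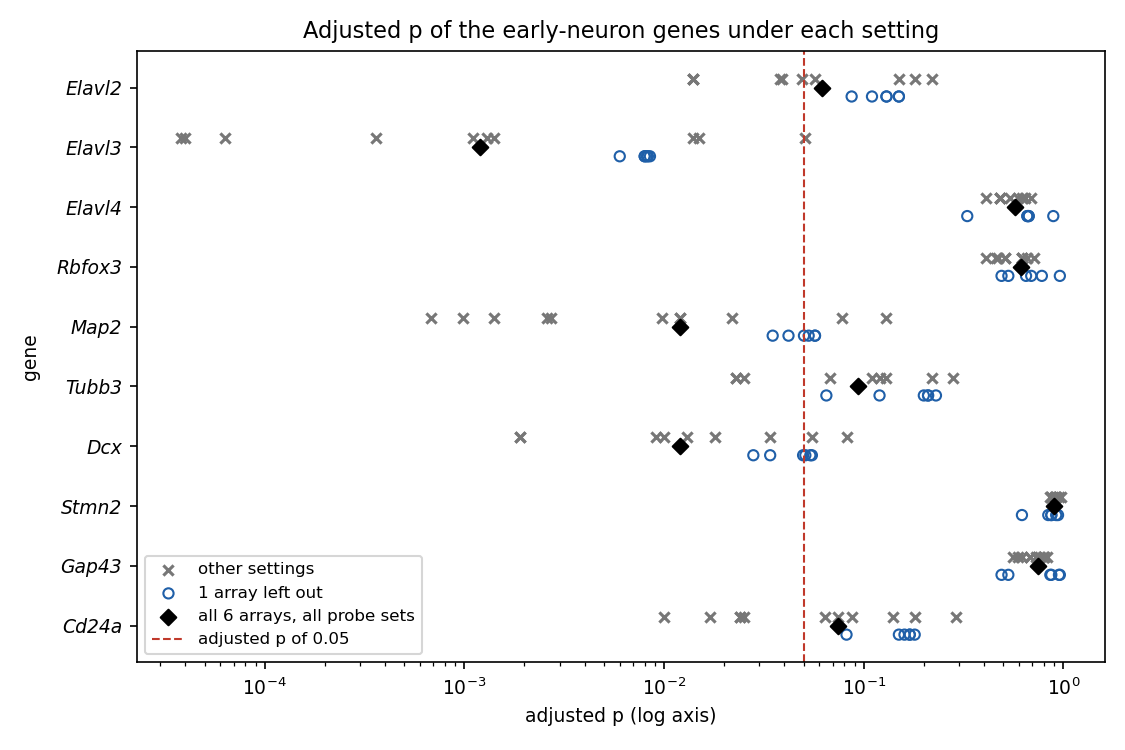
Adjusted p on a log axis (x axis) of each early-neuron gene (y axis), with a black diamond for all 6 arrays and all probe sets, blue circles for the 6 fits with 1 array left out, grey crosses for other tests, filters and scalings, and a dashed line at 0.05. Elavl3 lies left of the line except in 1 of the other tests (0.051). Map2 and Dcx straddle it with the diamond on the left, and Elavl2, Tubb3 and Cd24a with the diamond on the right. Elavl4, Rbfox3, Stmn2 and Gap43 lie right of it throughout.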

How the data were processed

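Each of 6 neurosphere cultures, 3 per vector, was hybridised to an Affymetrix Mouse Gene ST 1.0 array. The deposited log2 values, 1 for each probe set and array, were produced by the authors with RMA, which corrects background, normalizes by quantiles and summarises probes. The tool was Affymetrix Expression Console, according to the processing notes of the submitters. Its version, the library file and the genome build: not given in the sources used here. RMA compresses the differences of dim probe sets, and quantile normalization makes array distributions alike, so changes are relative to the other probe sets. Samples were grouped by title.

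The platform annotation names 1 gene for 21789 probe sets and several for 1621, and only the former were used by name. Differences between the vectors were tested two-sided in R 4.3.3 with the lmFit and eBayes functions of limma 3.58.1, without a filter. P-values were adjusted by Benjamini-Hochberg over the 35557 probe sets, and "rose" or "fell" means an adjusted p under 0.05. The fit was checked on simulated arrays. Related genes were compared by the within-array difference of their log2 values. Confidence intervals are at 95% from limma. Promoter windows and chromosomes came from RefSeq (GRCm38.p6). The genes and lists were chosen with earlier results of these data known, and list tests were not run. Of each list, up to 5 called genes (3 for cell type markers) with the smallest adjusted p were named, beside fixed relatives of the 10 genes. Nes, Sox2, Gfap, Gjb6, Map4, Dpysl2 and Dpysl5 fall outside this rule and were named after their values were seen. Of 285 listed symbols beside the 10, 271 had a probe set of their own. The alternatives were the methods' t-test, a Welch test, probe sets filtered at means of 5 or 6, only 1 probe set for each gene, the mean over a gene's probe sets, a limit of 1 on the log2 difference, median centring, quantile normalization, another variance prior, array weights, a replicate block and each array left out. The 3 arrays per group limit the precision. Figures were drawn with matplotlib 3.10.9.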

Additional observations from a re-analysis of the deposited data

How the results depend on the processing

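Of the 10 genes, 2 rose and 1 fell. The rises numbered 4 and the falls 2 with 1 probe set per gene or the mean over a gene's probe sets, which test fewer features. There were 2 falls, those of Map2 and Elavl2, also with the filter at a mean of 5, median centring, quantile normalization and the variance prior with trend. The filter at a mean of 6 tested 3 of the 10 and gave 1 rise, that of Cd24a. The Welch test gave 0 rises and 0 falls, and the methods' t-test with its own threshold, as well as limma with a limit of 1 on the log2 difference, 1 rise and 0 falls. With 1 array left out, 1 to 2 rose and 0 to 1 fell. With the replicate number as a block, 2 rose (Elavl3 and Tubb3) and 0 fell. Deviations of arrays with the same number correlated at 0.00, -0.03 and -0.02, and those of arrays with different numbers at -0.02 to 0.04. Each deviation is taken from a mean of only 3 arrays, so these correlations cannot settle whether the numbers pair the cultures. The log2 difference of Stmn2 was -0.02 after median centring, -0.03 without empty vector replicate 1 and -0.05 without Bmi1 replicate 1, and at most 0.11 (without Bmi1 replicate 3).

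Over all probe sets, 794 rose and 1231 fell. The counts were 1544 and 1880 with the filter at 5, 1346 and 1847 with that at 6, 306 and 544 with the replicate block, 71 and 139 with the Welch test, 100 and 200 with the methods' t-test with its own threshold and 155 and 331 with the limit of 1. With the variance prior with trend 1303 rose, and with the methods' t-test after Benjamini-Hochberg adjustment 492 rose. With 1 array left out 332 to 455 rose and 642 to 820 fell. Median centring moved log2 differences by -0.05. Each of the 10 genes has 1 probe set of its own, so no other probe set could be compared. The cause of these shifts was not tested.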

Other observations

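Transcription factors of neuroblasts and neuronal commitment were measured beside the 10 genes. Of 28 with a probe set, 3 rose, 4 fell and 21 did not pass, with a median log2 shift of 0.06. With 1 array left out, 3 rose and 3 fell without empty vector replicate 3, and 2 rose and 2 fell without any 1 of the other 5 arrays. Ebf1 fell from 4.70 to 3.04 and Neurod1 from 4.14 to 2.42, shifts of -1.66 and -1.71 (limma, adjusted p = 5.5e-04 and 0.0078). Both Neurod1 means and the Bmi1 mean of Ebf1 lie below the median of all probe sets, 4.41, and no detection call is given. Dlx1 rose by 0.99 and Meis2 by 0.69, whereas Insm1 fell by 0.53 (limma, adjusted p = 0.0036, 0.0070 and 0.030). Rest, the repressor of neuronal genes in other cells, had a shift of -0.18 (95% interval -0.46 to 0.10). Ptbp1 and Ptbp2, splicing repressors of which the latter is the form of neural progenitors and neurons, had shifts of -0.03 and 0.36 that did not pass (limma, adjusted p = 0.88 and 0.066). Rest, Ptbp1 and Ptbp2 were named after their values were seen.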
